A study of Mus musculus with 38 samples.

Results

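Inherited or acquired loss of a small set of genes besides Vhl underlies much of human kidney cancer. The RNA levels of the 9 mouse genes Pbrm1, Bap1, Setd2, Arid1a, Tsc1, Tsc2, Fh1, Flcn and Nf2, picked by symbol from a table of 21705 genes, were followed across 38 libraries of mouse kidney tumour cells, kidney tumours and normal kidney. None of the 9 genes was engineered in these animals, and all 9 were above the detection floor in every library. No member changed by more than 1 on the log2 scale in any comparison that passed its test.

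The libraries fall into 10 groups. All tumours and lines carry Ksp-rtTA and Tet-O-Myc, in which doxycycline (Dox) drives a Myc transgene in renal tubule cells under the Ksp-cadherin promoter. MYC animals (genotype label MYC+) carry no further engineered allele. VM animals (Vhl-/-; MYC +) also lose the floxed Vhl alleles in the same tubule cells through a tamoxifen-induced KspCad-CreERT2. VIM animals (Vhl-/-; MYC +; Ink-/-/Arf-/-) in addition lack Ink4a/Arf in every cell of the body. MYC-2983, VM and VIM cells are 1 line of each genotype, with 4 libraries labelled as maintained on Dox and 4 labelled as withdrawn from it. There are 3 libraries each of MYC tumours (mice 2917 and 2983, the latter with 2 libraries, averaged in tests), VM tumours and VIM tumours, and 5 of wild type kidney given vehicle, of which 3 are titled KT and 2 B6. Tumour mice were fed Dox according to the study's methods, although the labels name no treatment for tumours. Normal kidney is not a Dox control, so genotype, Dox and any difference in age cannot be told apart there. Each line is a single line and nothing says that its libraries are separate cultures, so their p-values measure the spread between libraries, which may be technical. A suffix number in the titles runs on from VM to VIM cells and starts anew in MYC-2983 cells. The labels do not say what it stands for, so whether the MYC-2983 libraries were prepared apart from the others is not known, and such a difference cannot be told apart from genotype.

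Values are RSEM estimates scaled by the authors to an upper quartile of 1000 per library (called units here). They are not divided by gene length, so levels are compared between groups and not between genes. Libraries held 8215700 to 36579000 estimated reads, and 3 reads, the floor used here, were worth 1.16 to 5.65 units. Vhl had 451 ± 12.2 units (mean ± SD, n = 4) in MYC-2983 cells labelled Dox, 13.1 ± 2.07 in VM and 12.7 ± 4.01 in VIM cells labelled Dox, and 219 to 312 units in VIM tumours against 612 to 772 in kidney. Cdkn2a, the Ink4a/Arf gene, had 30 ± 4.09 units in VIM cells and 3804 ± 359.7 in VM cells labelled Dox. The mouse Myc row went against the Dox label, with 338 to 699 units in the 12 libraries labelled Dox and 1308 to 1868 in the 12 without. Reads of the transgene are not separated in it, and all 6 proliferation genes tested (Mki67, Top2a, Ccnb1, Cdk1, Pcna and Mcm2) were higher in the libraries labelled Dox in each line. The direction "with Dox" below therefore means the libraries labelled Dox. The lines kept the kidney cadherin Cdh16 (3464 to 13110 units), while the proximal tubule transporter Slc34a1 and the loop marker Umod were at or under the floor in all 24 cell libraries. The 8 proximal tubule markers, Lrp2 among them, summed to 3805 to 8265 units in cells and 441400 to 1443400 in kidney. The 5 loop and collecting duct markers summed to at most 40.5 units in cells and 72772 to 161900 in kidney. For the 5 tubule identity markers, Cdh16 among them, these sums were 6710.5 to 20381 and 19768 to 28369.

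The 9 products work in 5 settings. PBRM1 and ARID1A are DNA-contacting or bromodomain subunits of SWI/SNF chromatin remodellers, BAP1 removes ubiquitin from histone H2A, and SETD2 is the enzyme that trimethylates histone H3 at lysine 36. TSC1 and TSC2 form a complex that shuts off the growth kinase mTORC1 through the GTPase RHEB, and folliculin (FLCN) acts on the RAG GTPases that bring mTORC1 and the TFE transcription factors to the lysosome. Fumarate hydratase (FH, Fh1 in the mouse) is an enzyme of the tricarboxylic acid (TCA) cycle, and merlin (NF2) is a membrane-linked activator of the Hippo kinases. In human clear cell carcinoma VHL, PBRM1, BAP1 and SETD2 lie on the same chromosome arm, which is often lost as a whole, while TSC1, TSC2, FLCN and FH are known from hereditary kidney tumour syndromes.

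In the mouse that arm is split. On mm9, the authors' build, Pbrm1 (chromosome 14, 31832324 to 31934778, plus strand, 31 exons) and Bap1 (chromosome 14, 32064675 to 32073115, plus strand, 17 exons) lie 129.9 kb apart, and Setd2 is on chromosome 9 (110435101 to 110521137, plus strand, 21 exons). The others are Arid1a (chromosome 4, 133234923 to 133312684), Tsc1 (chromosome 2, 28496748 to 28546687), Tsc2 (chromosome 17, 24732882 to 24769574), Fh1 (chromosome 1, 177530505 to 177555766), Flcn (chromosome 11, 59604910 to 59623518) and Nf2 (chromosome 11, 4665848 to 4749539). The Tsc2 gene overlaps Pkd1, Fh1 overlaps Kmo and Pbrm1 overlaps 2010107H07Rik and Gm5459, each on the other strand. Of the pathway genes named below, Psip1, Mtor, Rps6kb1, Mbd5, Sucla2, Lats2 and Msn also overlap a gene on the other strand. Lats2 (with Xpo4), Mtor, Mbd5 and Fnip1 overlap one on their own strand. The library kit marks strand, but whether the counting used it is not given in the sources used here.

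Because Myc is the engineered driver, the 250 bases before each start (RefSeq, GRCm38.p6) were searched for CACGTG, the palindromic E-box that MYC and MAX bind, which reads the same on both strands. All 9 genes matched, with 11 windows. The motif stood in the windows of Pbrm1 (first base 135 bases before the start) and Bap1 (143 before) and in none of the other 7 genes, against 6.86% of the 27025 genes with a window. The motif holds a CG pair. The Pbrm1 and Bap1 windows have 67.2% and 74.4% GC and 31 and 43 CG pairs, against medians of 52.4% and 6 over all windows. The share over all genes is therefore not matched for base content. The first pair of lines shows 60 bases around each match with the motif in capitals (Pbrm1 chr14:31018976-31019035, Bap1 chr14:31251319-31251378, both plus strand), and the second pair shows the 250 bases before the starts of Fh1 (chr1:175625636-175625885, minus strand) and Nf2 (chr11:4849545-4849794, minus strand), which, together with Bap1, are the members that were higher with Dox in all 3 lines.
Pbrm1: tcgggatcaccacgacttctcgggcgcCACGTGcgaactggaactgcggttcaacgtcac
Bap1: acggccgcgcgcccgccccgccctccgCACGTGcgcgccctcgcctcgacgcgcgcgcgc
Fh1: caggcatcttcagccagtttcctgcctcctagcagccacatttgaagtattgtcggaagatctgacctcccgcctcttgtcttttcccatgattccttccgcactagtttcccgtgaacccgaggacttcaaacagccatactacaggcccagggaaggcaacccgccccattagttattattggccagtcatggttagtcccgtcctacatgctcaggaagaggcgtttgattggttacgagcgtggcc
Nf2: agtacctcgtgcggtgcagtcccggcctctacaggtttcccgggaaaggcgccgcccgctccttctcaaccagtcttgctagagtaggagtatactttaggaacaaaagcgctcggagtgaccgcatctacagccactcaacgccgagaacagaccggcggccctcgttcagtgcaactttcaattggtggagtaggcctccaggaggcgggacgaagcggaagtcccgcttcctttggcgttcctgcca

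Across the 10 groups Fh1 varied most and Tsc2 least. The highest group mean of Fh1 was 5.15 times the lowest, that of Tsc2 was the narrowest, and the other 7 members lay between 1.84 times (Bap1) and 2.65 times (Arid1a). On the log2 scale these ranges run from 0.58 to 2.36, against a median of 1.83 over the 6791 genes whose mean reached 500 units. Fh1 was the only member with a wider range than that median. With the groups in order of their means, 5 of the 9 steps of Fh1 separated all libraries of neighbouring groups, 3 of those of Bap1, and 0 of those of Arid1a. The other 6 members had 1 or 2 such steps. Such steps were not counted over all genes, so no background stands beside these counts. Pbrm1 was highest in VIM and VM cells without Dox (means 3464 and 3375 units, which overlap) and lowest in normal kidney (1462 units), while Fh1 was lowest in cells (1152 to 2009.5 units) and highest in normal kidney, VM tumours and VIM tumours, whose libraries overlap.

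The chromatin regulators Bap1 and Arid1a had their highest means in MYC-2983 cells with Dox and Setd2 in MYC tumours. In those cells Bap1 stood at 2387 ± 67.5 units (mean ± SD, n = 4), where only 1 library of another group, a VIM tumour at 2328 units, reached its range, and it was lowest in VIM cells without Dox (1301 ± 46.7, n = 4). Setd2 was highest in MYC tumours (2106 ± 498, n = 3 libraries of 2 mice) and lowest in VIM tumours (995 ± 451, n = 3). Arid1a was higher in cells (1904 to 2232 as group means) than in VM tumours (1106 ± 190.2, n = 3) and kidney (1099 ± 247, n = 5), and lowest in VIM tumours (842 ± 524, n = 3). Of the growth regulators, Tsc1 was lowest in VM and VIM cells with Dox (586 ± 32.4 and 587 ± 16.6, n = 4 each, which overlap). Its highest mean was in MYC tumours (1258 ± 551, n = 3 libraries of 2 mice), through 1 library at 1894 units. The others, at 924 and 955 units, lay within the kidney range of 843 to 1066. Tsc2 was highest in kidney (1433 ± 196, n = 5) and lowest in VM tumours (956 ± 93.1, n = 3). Flcn was lowest in VM cells with Dox (616 ± 8.65, n = 4) and highest in MYC tumours (1240.0 ± 285, n = 3 libraries of 2 mice). Nf2 stood highest in MYC-2983 cells with Dox (2768 ± 87.1, n = 4), above all libraries of every other group, and lowest in VIM tumours (1472 ± 632, n = 3).

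**Figure D1:**
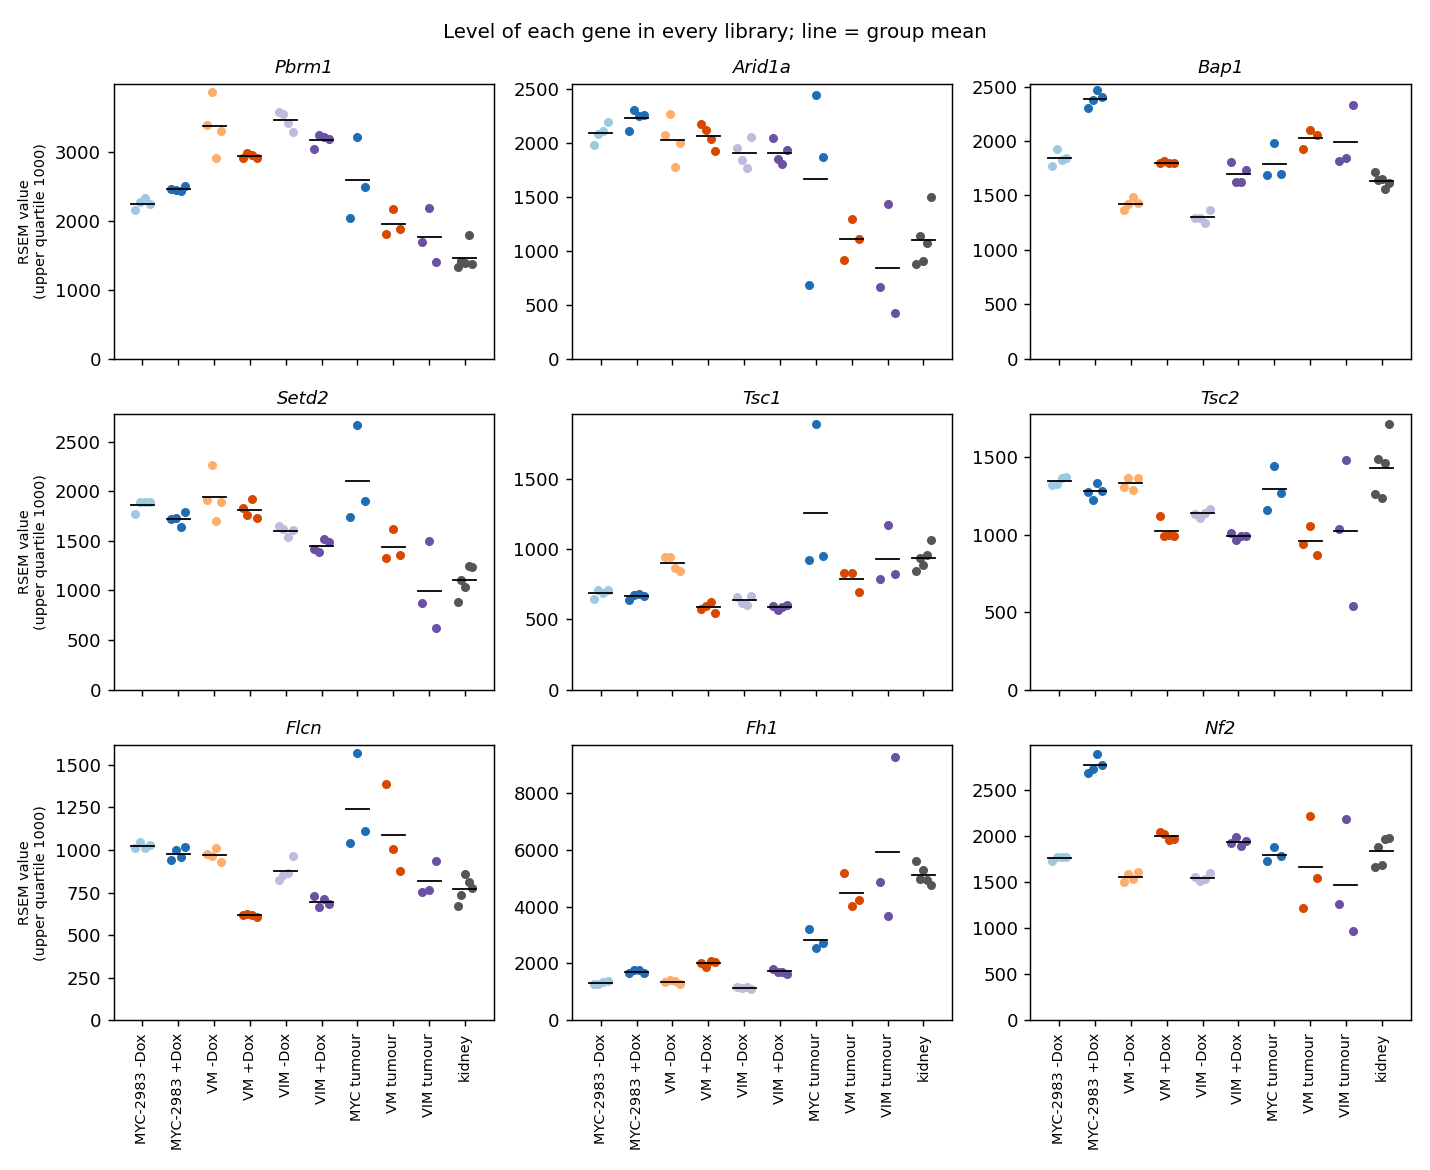
RSEM value of each of the 9 genes (y axis, units with an upper quartile of 1000, from 0) in every library of the 10 groups (x axis), with a line at the group mean. Cell libraries lie close together within a group, tumour libraries spread widely (Arid1a from 428 to 1431 units in VIM tumours), and Fh1 is lower in all 24 cell libraries than in all 14 tissue libraries.

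The first question was how each gene differed between libraries labelled Dox and those without. No line lacks the transgene, so effects of Myc and of Dox itself cannot be told apart in the cells. With Dox, Bap1, Fh1 and Nf2 were higher in all 3 lines, and the lysosomal and mTORC1 regulators Tsc2 and Flcn were lower in VM and VIM cells. In MYC-2983 cells 5 members were called higher and 2 lower, where 31.5% and 44.0% of the 15104 genes tested were called. In VM cells 3 were higher and 4 lower (26.1% and 47.7% of all genes), and in VIM cells 3 and 5 (31.1% and 44.2%). A call is an adjusted p under 0.05 from limma on log2(value + 1), with Benjamini-Hochberg adjustment over all genes tested. Most genes moved with Dox, so the members' counts are near the background in each line. The median log2 change of all genes was −0.13 in MYC-2983, −0.26 in VM and −0.15 in VIM cells, and −0.025, −0.073 and −0.023 after TMM rescaling, so a fall of that size in a member is no larger than the shift of the scale. Of all called genes 41.7%, 35.3% and 41.3% were higher with Dox in the 3 lines, and 50.1%, 47.2% and 50.01% after TMM rescaling. No member passed the stricter rule of a called change over 1 on the log2 scale, as 19.5%, 24.8% and 24.3% of all genes did.

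**Figure D2:**
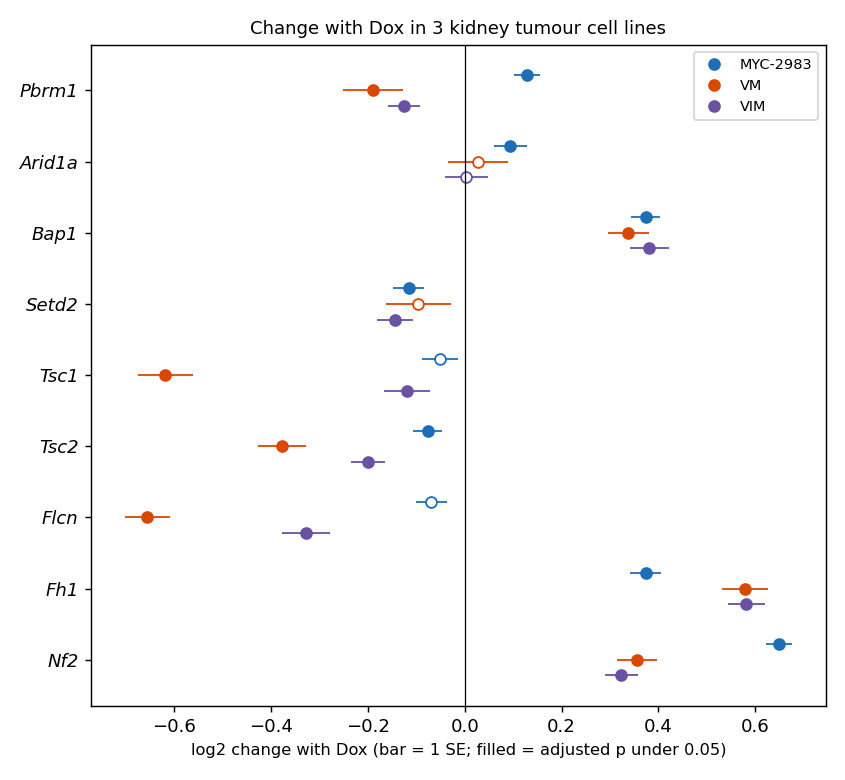
Log2 change with Dox (x axis, bar 1 SE) of each member (y axis) in the 3 lines, 4 libraries against 4 in each, filled where the adjusted p is under 0.05. Bap1, Fh1 and Nf2 lie to the right of 0 in all 3 lines, and Flcn lies at −0.65 in VM, −0.33 in VIM and −0.069 in MYC-2983 cells.

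Bap1 was the member with the most even response. In MYC-2983 cells its 4 libraries with Dox held 2303, 2378, 2466 and 2402 units against 1774, 1923, 1829 and 1844 without. The VM libraries held 1795, 1814, 1796 and 1798 with Dox and 1368, 1419, 1486 and 1427 without, and the VIM libraries 1805, 1622, 1621 and 1734 against 1294, 1293, 1251 and 1364. In each line all Dox libraries lay above all others. Log2 changes of Bap1 were 0.37 ± 0.030 (adjusted p = 1.48e-09), 0.34 ± 0.042 (adjusted p = 8.43e-07) and 0.38 ± 0.040 (adjusted p = 1.73e-08) in MYC-2983, VM and VIM cells (± SE here and below). Of 10 BAP1 partners, which include the ASXL cofactors and HCFC1, 8 were higher and 2 lower (median log2 change 0.28) in MYC-2983, 3 were higher and 4 lower (median log2 change −0.024) in VM and 4 were higher and 2 lower (median log2 change 0.11) in VIM cells. After TMM rescaling the VM counts became 5 higher and 3 lower (median log2 change 0.18). Mbd5, a methyl-CpG-binding-domain protein that binds the BAP1 complex, fell in each line, with log2 changes of −0.55 (adjusted p = 5.76e-08), −1.15 (adjusted p = 3.14e-09) and −0.86 (adjusted p = 1.26e-10).

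Setd2 changed little. Its MYC-2983 libraries held 1716, 1735, 1641 and 1789 units with Dox and 1771, 1895, 1897 and 1892 without, and its VIM libraries 1419, 1393, 1514 and 1484 against 1653, 1618, 1543 and 1605. The groups of MYC-2983 cells overlap only through 1 library on each side (1789 with Dox and 1771 without), and those of VIM cells do not overlap. The log2 changes were −0.12 ± 0.032 (adjusted p = 0.00291) and −0.14 ± 0.036 (adjusted p = 0.00123), but −0.0016 and 0.000292 after TMM rescaling, so neither fall stands apart from the scale. In VM cells the libraries held 1829.6, 1763, 1919 and 1728 units with Dox and 1911, 2269, 1702 and 1891 without, which overlap, and the change was −0.10 ± 0.067 (adjusted p = 0.205). It turned to 0.11 (adjusted p = 0.124) after TMM rescaling, and with a library left out it lay between −0.16 (adjusted p = 0.0264, without no-Dox replicate 3) and −0.019. Of 10 other H3K36 enzymes and readers, 5 were higher and 4 lower (median log2 change 0.078), 3 were higher and 4 lower (median log2 change −0.014) and 6 were higher and 3 lower (median log2 change 0.13) in MYC-2983, VM and VIM cells, and in VM cells the median was 0.19 after TMM rescaling. The chromatin reader Psip1 rose in each, with log2 changes of 0.71 (adjusted p = 4.08e-12), 0.55 (adjusted p = 8.94e-08) and 0.89 (adjusted p = 1.93e-16).

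Of the SWI/SNF members, Pbrm1 differed in direction between lines. Its MYC-2983 libraries held 2465, 2452, 2436 and 2502 units with Dox and 2155, 2282, 2337 and 2241 without, which do not overlap. The VM libraries held 2919.5, 2985, 2966 and 2915 against 3396, 3869, 2922 and 3315, and the VIM libraries 3049, 3244, 3216 and 3187 against 3589, 3555, 3418 and 3292. In VIM cells every Dox library was lower, and in VM cells 1 of the 4 libraries without Dox (2922) lay among those with Dox. The log2 changes were 0.13 ± 0.027 (adjusted p = 0.000348), −0.19 ± 0.062 (adjusted p = 0.0109) and −0.13 ± 0.034 (adjusted p = 0.00203), with the VM and VIM values at 0.012 and 0.019 after TMM rescaling. The VM libraries without Dox hold a library that stands apart in depth, replicate 2 with 36579000 estimated reads, which is the highest of its group for Pbrm1, Setd2 and Arid1a, while replicate 3 is the lowest. Genes with transcripts of at least 7000 bases, less those under 2000 bases, deviated from the group mean by 0.14 in replicate 2 and −0.17 in replicate 3 (log2). These were the highest and lowest such values of all cell libraries. The part of depth and of transcript length in the 3 genes was not tested. Without replicate 2 the Pbrm1 change in VM cells was −0.12 (adjusted p = 0.0222), and without replicate 3 it was −0.26 (adjusted p = 0.000212).

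Arid1a had 2113, 2307, 2252 and 2256 units with Dox and 1976, 2083, 2112 and 2196 without in MYC-2983 cells, groups that overlap, with a log2 change of 0.094 ± 0.034 (adjusted p = 0.0172). VM cells held 2178, 2123, 2033 and 1921 units with Dox and 2077, 2263, 1778 and 2001 without, and VIM cells 2043, 1847, 1804 and 1934 against 1954, 1838, 1770.4 and 2052, and both pairs overlap. The changes in VM and VIM cells were 0.028 ± 0.062 (adjusted p = 0.699) and 0.0033 ± 0.045 (adjusted p = 0.951), and after TMM rescaling 0.23 (adjusted p = 0.00131) and 0.15 (adjusted p = 0.0032). Of 17 other SWI/SNF subunits, 11 were higher and 4 lower (median log2 change 0.24) in MYC-2983, 7 were higher and 7 lower (median log2 change 0.021) in VM and 9 were higher and 6 lower (median log2 change 0.12) in VIM cells. The core subunit Smarcc1 rose in all 3, with log2 changes of 0.64 (adjusted p = 1.41e-13), 0.56 (adjusted p = 3.81e-09) and 0.66 (adjusted p = 3.02e-13).

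The TSC genes and Flcn fell most in VM cells. Tsc1 held 574, 595, 626 and 549 units with Dox and 943, 946, 867 and 844 without in VM cells, a log2 change of −0.62 ± 0.057 (adjusted p = 1.8e-08). In MYC-2983 cells the values were 638, 673, 683 and 668 against 647, 707, 691 and 713, and in VIM cells 594, 564, 589 and 602 against 661, 619.8, 603 and 669. The VM groups are far apart, those of MYC-2983 overlap (log2 change −0.051 ± 0.038, adjusted p = 0.233, and 0.063 after TMM rescaling), and those of VIM cells all but touch (602 and 603 units). The VIM change was −0.12 ± 0.047 (adjusted p = 0.0271) and 0.024 after TMM rescaling.

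Tsc2, the GTPase-activating subunit, had 1123, 991, 998 and 995 units with Dox and 1307, 1368, 1287 and 1365 without in VM cells and 1009, 968, 992 and 993 against 1132, 1111, 1141 and 1167 in VIM cells, with no overlap in either. The log2 changes were −0.38 ± 0.050 (adjusted p = 2.19e-06) and −0.20 ± 0.036 (adjusted p = 3.15e-05), the latter −0.055 (adjusted p = 0.156) after TMM rescaling. In MYC-2983 cells, with 1273, 1227, 1337 and 1280.2 against 1319, 1330.4, 1369 and 1375 units, the groups overlap and the change was −0.076 ± 0.030 (adjusted p = 0.0303), but 0.038 after TMM rescaling. The gene Pkd1, which overlaps the end of Tsc2 on the other strand, had 593 to 682 units with Dox and 1167 to 1286 without in VIM cells. In MYC-2983 cells Pkd1 held 542 to 586 units with Dox and 929 to 1176 without, and in VM cells, where Tsc2 fell most, 791 to 978 against 894 to 1127, which overlap. Its part in the Tsc2 values was not tested. Of 12 other genes of the TSC and mTORC1 pathway, 5 were higher and 2 lower (median log2 change 0.085) in MYC-2983, 5 were higher and 5 lower (median log2 change −0.026) in VM and 9 were higher and 2 lower (median log2 change 0.19) in VIM cells, and in VM cells the median was 0.17 after TMM rescaling. Rps6kb1, the S6 kinase downstream of mTORC1, rose in each line, with log2 changes of 0.40 (adjusted p = 4.54e-10), 0.51 (adjusted p = 2.25e-07) and 0.53 (adjusted p = 2.48e-11).

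Flcn showed the steepest fall of any member. In VM cells it held 617, 626, 615 and 605 units with Dox and 974, 965, 1012 and 931 without. In VIM cells the values were 729.5, 667, 709 and 683 against 821, 854, 862 and 967, and in MYC-2983 cells 939, 997, 959 and 1016 against 1011, 1049, 1014 and 1027. The VM and VIM groups do not overlap and the MYC-2983 groups do, by 1 library. These are log2 changes of −0.65 ± 0.047 (adjusted p = 6.52e-10), −0.33 ± 0.049 (adjusted p = 3.53e-06) and −0.069 ± 0.032 (adjusted p = 0.0586), the last 0.046 after TMM rescaling. Of 12 FLCN partners and TFE factors, 3 were higher and 8 lower (median log2 change −0.28) in MYC-2983, 1 were higher and 8 lower (median log2 change −0.28) in VM and 3 were higher and 8 lower (median log2 change −0.16) in VIM cells. Rragb, a RAG GTPase, rose, with log2 changes of 1.81 (adjusted p = 3.39e-12), 1.41 (adjusted p = 4.93e-11) and 1.43 (adjusted p = 1.54e-11), and Fnip1, the folliculin-binding partner, fell, with log2 changes of −0.65 (adjusted p = 2.1e-11), −0.85 (adjusted p = 5.91e-10) and −0.76 (adjusted p = 1.24e-12). Gpnmb, a lysosomal glycoprotein known as a TFE target, fell in MYC-2983 and VIM cells, with −2.06 (adjusted p = 9.19e-14) and −1.35 (adjusted p = 2.97e-08), and VM cells with Dox held it near the floor.

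Fh1 rose, as did most of its pathway. It held 1651, 1771, 1766 and 1668 units with Dox and 1280.2, 1292, 1339 and 1379 without in MYC-2983 cells. The VM values were 2006, 1886, 2098 and 2047 against 1341, 1406, 1367 and 1268 and the VIM values 1819, 1716, 1714 and 1646 against 1179.6, 1149, 1183 and 1096. All Dox libraries were higher than all others in each line, with log2 changes of 0.37 ± 0.032 (adjusted p = 5.49e-09), 0.58 ± 0.047 (adjusted p = 3.59e-09) and 0.58 ± 0.038 (adjusted p = 6.67e-12). Of 18 other TCA cycle genes, 14 were higher and 3 lower (median log2 change 0.25) in MYC-2983, 11 were higher and 4 lower (median log2 change 0.25) in VM and 15 were higher and 1 lower (median log2 change 0.38) in VIM cells. Suclg2, a subunit of succinyl-CoA ligase, rose, with log2 changes of 0.85 (adjusted p = 4.05e-15), 1.22 (adjusted p = 1.58e-13) and 1.38 (adjusted p = 1.98e-18), and Idh2, the mitochondrial isocitrate dehydrogenase, rose, with 0.45 (adjusted p = 3.36e-10), 0.73 (adjusted p = 1.02e-10) and 0.40 (adjusted p = 1.16e-09). Fh1 itself stood near the middle of all genes by size of change, with 42.9%, 51.4% and 53.1% of the genes tested changing less.

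Nf2 rose, while most of its pathway fell on the deposited scale. Its libraries held 2686, 2729.8, 2889 and 2768 units with Dox and 1729.8, 1776, 1778 and 1775 without in MYC-2983 cells. The values were 2045, 2019, 1953 and 1967 against 1504, 1591, 1536 and 1607 in VM cells and 1923, 1992, 1893 and 1949 against 1558, 1508, 1529 and 1604 in VIM cells. No groups overlap, and the log2 changes were 0.65 ± 0.027 (adjusted p = 1.32e-13), 0.36 ± 0.042 (adjusted p = 4.58e-07) and 0.32 ± 0.033 (adjusted p = 1.18e-08). Of 14 Hippo core genes and NF2 partners, 1 were higher and 10 lower (median log2 change −0.40) in MYC-2983, 1 were higher and 11 lower (median log2 change −0.46) in VM and 1 were higher and 8 lower (median log2 change −0.30) in VIM cells. After TMM rescaling these became 3 higher and 9 lower (median log2 change −0.29), 3 higher and 7 lower (median log2 change −0.25) and 5 higher and 7 lower (median log2 change −0.15). The scaffold Amot fell, with log2 changes of −1.39 (adjusted p = 1.7e-15), −1.46 (adjusted p = 8.39e-14) and −1.64 (adjusted p = 5.13e-19), and the kinase Lats2 fell, with changes of −1.33 (adjusted p = 1.16e-16), −1.08 (adjusted p = 7.08e-12) and −1.15 (adjusted p = 2.15e-17). Among the 3 ERM relatives of merlin, which link membrane to actin, Msn fell, with log2 changes of −1.14 (adjusted p = 2.8e-15), −1.08 (adjusted p = 9e-12) and −0.85 (adjusted p = 3.84e-15), and Rdx rose, with log2 changes of 0.30 (adjusted p = 9.81e-10), 0.41 (adjusted p = 5.32e-07) and 0.33 (adjusted p = 1.32e-09).

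The response to Dox was then compared between lines with an interaction term. Between VM and MYC-2983 cells it differed for 6 members, 1 more positive and 5 more negative in VM cells, where 17.5% and 28.7% of all genes were called. The difference (VM minus MYC-2983) was −0.59 ± 0.050 (adjusted p = 9.43e-09) for Flcn, −0.57 ± 0.068 (adjusted p = 8.57e-07) for Tsc1 and −0.30 ± 0.057 (adjusted p = 0.00021) for Tsc2. For Pbrm1, which rose in MYC-2983 and fell in VM cells on the deposited scale, it was −0.32 ± 0.075 (adjusted p = 0.00152), for Nf2 −0.29 ± 0.045 (adjusted p = 1.77e-05) and for Fh1 0.20 ± 0.057 (adjusted p = 0.00584). Between VIM and MYC-2983 cells 5 members differed, 1 more positive and 4 more negative (23.9% and 23.6% of all genes). Nf2 (−0.33 ± 0.040, adjusted p = 5.67e-07), Flcn (−0.26 ± 0.060, adjusted p = 0.00118) and Pbrm1 (−0.25 ± 0.043, adjusted p = 4.3e-05) were again more negative and Fh1 more positive (0.21 ± 0.051, adjusted p = 0.00182). These 2 contrasts share the MYC-2983 libraries. VIM and VM cells differed in the response of 3 members, all less negative in VIM cells, where 22.8% of all genes were called more positive and 10.5% more negative. They were Tsc1 (0.50 ± 0.073, adjusted p = 1.46e-05), Flcn (0.33 ± 0.067, adjusted p = 0.000624) and Tsc2 (0.18 ± 0.058, adjusted p = 0.0219), of which Tsc2 was 0.031 (adjusted p = 0.711) after TMM rescaling. On that scale Nf2 was called more negative in VIM cells, at −0.18 (adjusted p = 0.0045) in place of −0.032 (adjusted p = 0.652). No difference between lines was called for Bap1, Setd2 or Arid1a in any of the 3 tests on the deposited scale.

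The genotypes were next compared among libraries labelled Dox. VM cells differed from MYC-2983 cells in 8 members, with 2 higher and 6 lower (26.7% and 49.9% of all genes, and 24.6% by the stricter rule). Flcn (−0.67 ± 0.036, adjusted p = 7.9e-10), Nf2 (−0.47 ± 0.030, adjusted p = 5e-09), Bap1 (−0.41 ± 0.028, adjusted p = 1.09e-08) and Tsc2 (−0.32 ± 0.044, adjusted p = 1.38e-05) were lower in VM cells, and Pbrm1 (0.26 ± 0.025, adjusted p = 3.82e-07) and Fh1 (0.23 ± 0.038, adjusted p = 8.07e-05) higher. Without Dox, where the same lines are compared, Flcn differed by −0.079 (adjusted p = 0.0798) and Tsc2 by −0.018 (adjusted p = 0.67), and Tsc1, which was lower in VM cells with Dox (−0.18), was higher by 0.38 (adjusted p = 8.64e-06). The Tsc1 difference with Dox was −0.041 (adjusted p = 0.418) after TMM rescaling and −0.047 (adjusted p = 0.351) after quantile normalization, and Setd2, which was not called (0.073), was higher in VM cells by 0.22 (adjusted p = 8.89e-05) and 0.15 (adjusted p = 0.00208) on these scales. The lower Flcn and Tsc2 of VM cells were thus seen with Dox and did not pass the test without it.

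VIM cells differed from MYC-2983 cells in 8 members with Dox, 1 higher and 7 lower (26.4% and 49.7% of all genes, and 23.9% by the stricter rule). Nf2 (−0.51 ± 0.029, adjusted p = 7.9e-10), Bap1 (−0.49 ± 0.037, adjusted p = 1.68e-08) and Flcn (−0.49 ± 0.038, adjusted p = 2.85e-08) were lower and Pbrm1 higher (0.36 ± 0.026, adjusted p = 1.2e-08). Tsc1 (−0.18) and Arid1a (−0.23) were also called lower, but after TMM rescaling they were −0.032 (adjusted p = 0.448) and −0.080 (adjusted p = 0.066), and Fh1, at 0.0080, was called higher there (0.16, adjusted p = 0.000559). Both comparisons share the MYC-2983 libraries. The median log2 change of all genes was −0.19 and −0.18 in these comparisons (−0.055 and −0.040 after TMM rescaling), and the Arid1a difference in VM cells, −0.11, was 0.030 on the TMM scale. Of all called genes 34.9% and 34.7% were higher, and 46.0% and 47.1% after TMM rescaling. VIM and VM cells differed in 6 members, 2 higher and 4 lower in VIM cells (35.1% and 32.4% of all genes, 19.1% by the stricter rule). Setd2 was lower (−0.32 ± 0.039, adjusted p = 2.39e-06), with 1419, 1393, 1514 and 1484 units in VIM and 1829.6, 1763, 1919 and 1728 in VM libraries, which do not overlap. Fh1 was also lower (−0.22 ± 0.039, adjusted p = 0.000107) and Flcn higher (0.18 ± 0.042, adjusted p = 0.00132) with Dox, while without Dox Flcn was lower in VIM cells (−0.15, adjusted p = 0.0221). The lower Bap1 (−0.088 ± 0.037, adjusted p = 0.0453) and Arid1a (−0.11 ± 0.045, adjusted p = 0.0329) of VIM cells were not called with no filter or after quantile normalization, where 2 members were lower in place of 4. With a library left out 4 to 6 members were called, Bap1 losing its call in 6 of the 8 fits and Arid1a in 4.

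The tumours were compared with normal kidney. MYC tumours had more Pbrm1, Setd2 and Flcn RNA and less Fh1, VM tumours had more Pbrm1, Setd2, Flcn and Bap1 and less Tsc2, and no member passed in VIM tumours. The calls were 3 higher and 1 lower in MYC tumours (2 mice against 5), where 27.5% and 24.3% of all genes were called, 4 and 1 in VM tumours (25.7% and 29.0%), and 0 in VIM tumours (25.5% and 26.2%). By the stricter rule 37.4%, 39.8% and 39.6% of all genes passed in MYC, VM and VIM tumours and no member did. The median log2 change of all genes was 0.074, −0.051 and 0.0056. The calls rest on few animals. Without mouse 2983 MYC tumours had 2 calls (Setd2 and Fh1), and without mouse 2917 they had 6, with Arid1a and Tsc1 added. In VM tumours Tsc2 was called whichever library was left out, but not in 1 fit of all tissue groups (adjusted p = 0.079), where Flcn was the 1 member called. Without VM tumour 2 the members called were Tsc2 and, newly, Nf2, and without kidney 2 Tsc2 alone. The 3 comparisons share the kidney libraries. In bulk tissue fewer cells of a type and less RNA per cell cannot be told apart, and the tissues differ in make-up. All 8 proximal tubule and all 5 loop and collecting duct markers were lower in each tumour genotype. The 8 leukocyte markers summed to 2215 to 15531 units in tumours and 1475 to 2415 in kidney, but they did not move together. In MYC, VM and VIM tumours 3 were higher and 0 lower (median log2 change 0.38), 3 were higher and 3 lower (median log2 change −0.70) and 3 were higher and 2 lower (median log2 change −0.48). The myeloid genes Cd68, Lyz2 and Itgam were the 3 higher in each, with Cd68 at 281 to 1571 units against 27.7 to 43.0 in kidney, while the pan-leukocyte gene Ptprc had log2 changes of −0.32 (adjusted p = 0.526), −2.29 (adjusted p = 0.00121) and −0.81 (adjusted p = 0.0639). Of the endothelial markers 5, 4 and 5 of 5 were lower in MYC, VM and VIM tumours, with sums of 192 to 1949 units against 3253 to 5579. Their part in the members' values was not tested.

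The tissue libraries also differ in how long and short transcripts are represented. For each library the median log2 deviation from the tissue mean of 886 genes with transcripts of at least 7000 bases, less that of 2745 genes under 2000 bases (members left out of both), was 0.21, 0.99 and 0.48 in MYC tumours and −0.38, 0.16 and −0.18 in VM tumours. It was −0.76, 0.21 and −1.23 in VIM tumours and −0.32, 0.15, −0.13, 0.30 and 0.44 in kidney. In kidney the negative values were those of the libraries titled B6 and the positive ones those titled KT. Length difference and title can therefore not be told apart in kidney, which also holds for the covariate fits below. Long transcripts are thus low in VIM tumours 1 and 3 and high in MYC tumour 2. The difference comes from the same expression values as the tests and goes partly with tumour genotype. The covariate fits therefore cannot tell length apart from genotype. The longest transcripts of Setd2 (8350 bases), Arid1a (8190), Pbrm1 (7907), Tsc1 (7702) and Tsc2 (6228) are long and that of Fh1 (2636) is short, so each change against kidney is also given from a fit with this difference as a covariate, a setting added after seeing the data.

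**Figure D3:**
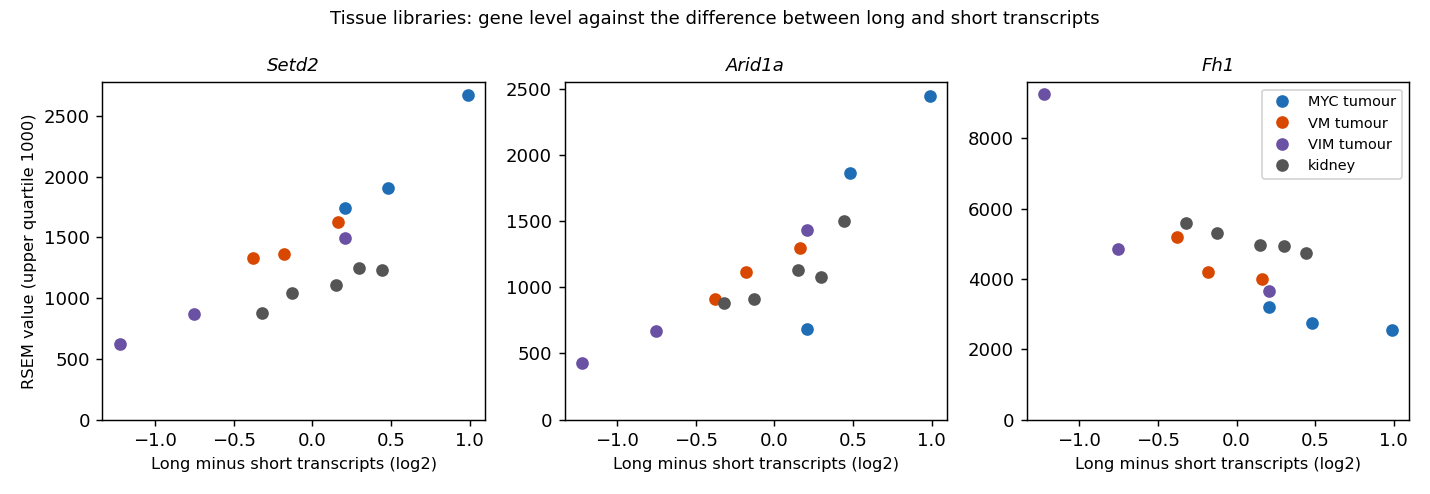
Level of Setd2, Arid1a and Fh1 (y axes, units from 0) in the 14 tissue libraries against the log2 difference between long and short transcripts in the same library (x axis). Setd2 and Arid1a are lowest and Fh1 is highest in VIM tumour 3, which has the lowest difference (−1.23). Setd2 is higher in MYC tumours 1 and 3 and in the VM tumours than in kidneys of a similar difference. MYC tumour 2, at 0.99, lies beyond the highest kidney (0.44), so no kidney matches it.

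Setd2 and Pbrm1 were higher in MYC and VM tumours, and neither passed the test in VIM tumours. Setd2 had 1741, 2673 and 1904 units in MYC tumours, 1329, 1624 and 1361 in VM tumours and 870.1, 1495 and 619 in VIM tumours. Normal kidney had 881, 1108, 1039, 1244 and 1232. All MYC and VM tumours lay above all kidneys, and the VIM tumours lay on both sides. The log2 changes were 0.86 ± 0.18 (adjusted p = 0.00411), 0.39 ± 0.15 (adjusted p = 0.0476) and −0.23 ± 0.26 (adjusted p = 0.483) in MYC, VM and VIM tumours. The VM value was 0.38 (adjusted p = 0.0514) after TMM rescaling, and its call was lost in 5 of the 8 fits with a library left out. Against the kidneys titled KT only, no member was called higher in VM tumours. With the length covariate the Setd2 changes were 0.61 (adjusted p = 0.00352), 0.53 (adjusted p = 0.00194) and 0.32 (adjusted p = 0.0456). In VIM tumours the sign thus turned with a call, in a fit that cannot tell length apart from genotype. Of the 10 other H3K36 genes, 6 were higher and 0 lower (median log2 change 0.77), 5 were higher and 0 lower (median log2 change 0.54) and 2 were higher and 0 lower (median log2 change 0.18) in MYC, VM and VIM tumours, with Psip1 at 2.09 (adjusted p = 0.000194), 1.67 (adjusted p = 0.000186) and 1.21 (adjusted p = 0.00276).

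Pbrm1 had 2046, 3222 and 2499 units in MYC, 1815, 2171 and 1889 in VM and 1693, 2193 and 1408 in VIM tumours, against 1327, 1422, 1389.6, 1801 and 1371 in kidney. All MYC and VM tumours were above all kidneys, and of the VIM tumours 1 lay above them. The changes were 0.73 ± 0.18 (adjusted p = 0.0088), 0.43 ± 0.14 (adjusted p = 0.0236) and 0.26 ± 0.18 (adjusted p = 0.252), and with the covariate 0.57 (adjusted p = 0.0313), 0.50 (adjusted p = 0.00932) and 0.52 (adjusted p = 0.0137). Without mouse 2983 the MYC change was 0.49 (adjusted p = 0.0767). The Pbrm1 call in VM tumours was lost in 3 of the 8 fits with a library left out. The overlapping gene 2010107H07Rik had 498 to 1751 units in kidney and 144 to 309 in MYC tumours, the opposite order. In VM and VIM tumours it had 375 to 791 and 419 to 1661 units, which overlap kidney. Its part in the Pbrm1 values was not tested.

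Arid1a was not called in any tumour group. It had 683, 2448 and 1864 units in MYC, 913, 1294 and 1112 in VM and 667, 1431 and 428 in VIM tumours, and 881, 1133, 908, 1077 and 1498 in kidney, and all groups overlap. Its log2 changes were 0.16 ± 0.40 (adjusted p = 0.76), 0.022 ± 0.19 (adjusted p = 0.931) and −0.54 ± 0.35 (adjusted p = 0.219). With the length covariate they were −0.40 (adjusted p = 0.316), 0.22 (adjusted p = 0.15) and 0.22 (adjusted p = 0.228), so the sign turned in MYC and VIM tumours. The VIM value was −1.01 (adjusted p = 0.00943) without VIM tumour 2. The MYC value was −0.66 without mouse 2983 and 0.99 without mouse 2917, so it rests on which animal is used. Of the 17 other SWI/SNF subunits, 14 were higher and 2 lower (median log2 change 0.78) in MYC, 10 were higher and 2 lower (median log2 change 0.62) in VM and 7 were higher and 2 lower (median log2 change 0.48) in VIM tumours, and with the covariate 13 higher and 2 lower (median log2 change 0.66) in VIM tumours. Smarcc1 rose, with log2 changes of 1.66 (adjusted p = 0.000189), 1.33 (adjusted p = 0.000244) and 0.98 (adjusted p = 0.0218), and the ATPase Smarca2 fell, with log2 changes of −2.41 (adjusted p = 0.000568), −3.43 (adjusted p = 9.77e-06) and −3.41 (adjusted p = 1.69e-05).

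Bap1 had 1929, 2101 and 2054 units in VM tumours and 1815, 1842 and 2328 in VIM tumours against 1713, 1644, 1652, 1559 and 1617 in kidney. Every VM and VIM tumour was above every kidney. The change was 0.31 ± 0.10 (adjusted p = 0.0287) in VM and 0.28 ± 0.13 (adjusted p = 0.111) in VIM tumours, and 0.11 ± 0.11 (adjusted p = 0.456) in MYC tumours, whose libraries (1688, 1981 and 1699) overlap those of kidney. With the covariate the Bap1 changes were 0.30 (adjusted p = 0.0244) in VM, 0.15 (adjusted p = 0.296) in VIM and 0.12 (adjusted p = 0.397) in MYC tumours. The VM call was lost under several settings, at 0.30 (adjusted p = 0.0583) after TMM rescaling. Of the BAP1 partners 6 were higher and 1 lower (median log2 change 0.86), 4 were higher and 1 lower (median log2 change 0.36) and 4 were higher and 2 lower (median log2 change 0.15) in MYC, VM and VIM tumours.

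Tsc2 was lower in VM tumours and Tsc1 was not called. Tsc2 had 941, 1056 and 872 units in VM tumours and 1261, 1489.7, 1235, 1463 and 1717 in kidney, with no overlap. MYC tumours had 1159, 1444 and 1271 and VIM tumours 1039, 1482 and 541, which overlap the kidneys. The changes were −0.58 ± 0.14 (adjusted p = 0.0067) in VM, −0.18 ± 0.16 (adjusted p = 0.375) in MYC and −0.60 ± 0.29 (adjusted p = 0.107) in VIM tumours, and with the covariate −0.46 (adjusted p = 0.00645), −0.39 (adjusted p = 0.0276) and −0.021 (adjusted p = 0.928). Tsc1 had 924, 1894 and 955 units in MYC, 829.6, 829.9 and 698 in VM and 785, 1173 and 824 in VIM tumours against 843, 934, 886, 958 and 1066 in kidney. All VM tumours lay below all kidneys, while MYC and VIM tumours overlap them. The Tsc1 changes were 0.25 ± 0.17 (adjusted p = 0.246), −0.25 ± 0.13 (adjusted p = 0.124) and −0.035 ± 0.17 (adjusted p = 0.877) in MYC, VM and VIM tumours, and with the covariate 0.040 (adjusted p = 0.819), −0.19 (adjusted p = 0.201) and 0.23 (adjusted p = 0.143). Of the 12 pathway genes, 4 were higher and 1 lower (median log2 change 0.19), 4 were higher and 3 lower (median log2 change −0.030) and 4 were higher and 2 lower (median log2 change 0.039) in MYC, VM and VIM tumours, where the VM median was 0.080 after quantile normalization and the VIM median −0.0083 after TMM rescaling. Eif4ebp1, the translational repressor that mTORC1 inactivates, rose, with log2 changes of 2.76 (adjusted p = 1.99e-05), 3.52 (adjusted p = 2.78e-07) and 3.82 (adjusted p = 1.03e-06), and Mtor itself fell, with log2 changes of −2.68 (adjusted p = 0.000105), −2.13 (adjusted p = 3.85e-05) and −2.005 (adjusted p = 0.000214).

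Flcn had 1042, 1566 and 1112 units in MYC tumours and 1385, 1003 and 879 in VM tumours against 671, 733, 861, 811 and 779 in kidney, and all 6 lay above the kidneys. VIM tumours had 751, 767 and 936, of which 1 lay above them. The changes were 0.61 ± 0.15 (adjusted p = 0.0103), 0.48 ± 0.17 (adjusted p = 0.0342) and 0.083 ± 0.15 (adjusted p = 0.667), and with the covariate 0.50 (adjusted p = 0.0326), 0.46 (adjusted p = 0.0573) and 0.030 (adjusted p = 0.884). Without VM tumour 1 the VM value was 0.29 (adjusted p = 0.115). Of the FLCN partners and TFE factors 4 were higher and 4 lower (median log2 change −0.065), 5 were higher and 4 lower (median log2 change 0.34) and 5 were higher and 5 lower (median log2 change 0.12) in MYC, VM and VIM tumours, and the MYC median was 0.016 after quantile normalization. Gpnmb had a mean of 4.04 units in kidney, near the floor, and 1145, 6119 and 10423 units in MYC, VM and VIM tumours. It is also made by macrophages, and 3 of the 8 leukocyte markers were higher in each tumour genotype while 0, 3 and 2 were lower in MYC, VM and VIM tumours.

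Fh1 had 3202, 2540.1 and 2734 units in MYC tumours against 5597, 4977, 5299.9, 4935 and 4751 in kidney, and all kidneys lay above all MYC tumours. VM tumours had 5184, 4011 and 4213 and VIM tumours 4861, 3660.4 and 9261, on both sides of the lowest kidney. The changes were −0.81 ± 0.14 (adjusted p = 0.0019), −0.20 ± 0.13 (adjusted p = 0.228) and 0.10 ± 0.26 (adjusted p = 0.764), and with the covariate −0.68 (adjusted p = 0.00275), −0.29 (adjusted p = 0.0426) and −0.38 (adjusted p = 0.118). After quantile normalization the VM value turned to 0.25 (adjusted p = 0.0992). Kmo, which overlaps the start of Fh1 on the other strand, had 3523 to 3780.3 units in kidney and at most 110.1 in any tumour, so Fh1 is uncertain in this comparison if strand was not used. Of the 18 TCA genes, 0 were higher and 15 lower (median log2 change −1.07) in MYC, 1 were higher and 11 lower (median log2 change −0.58) in VM and 2 were higher and 7 lower (median log2 change −0.23) in VIM tumours, but after quantile normalization 1 higher and 7 lower (median log2 change −0.44), 3 higher and 6 lower (median log2 change −0.054) and 6 higher and 2 lower (median log2 change 0.16). Sucla2, a succinyl-CoA ligase subunit, fell, with log2 changes of −1.55 (adjusted p = 8.1e-05), −1.53 (adjusted p = 4.86e-06) and −1.19 (adjusted p = 7.21e-05).

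Nf2 was not called in any tumour group, with 1733, 1882 and 1779 units in MYC, 1224, 2219 and 1548 in VM and 1265, 2182 and 969 in VIM tumours and 1666, 1882, 1691, 1969 and 1977 in kidney, which overlap. The changes were −0.041 ± 0.13 (adjusted p = 0.81), −0.18 ± 0.18 (adjusted p = 0.423) and −0.40 ± 0.24 (adjusted p = 0.181), and with the covariate −0.16 (adjusted p = 0.233), −0.026 (adjusted p = 0.888) and 0.075 (adjusted p = 0.635). Left-out libraries decided the call, at −0.41 (adjusted p = 0.0428) in VM tumours without VM tumour 2 and −0.73 (adjusted p = 0.00428) in VIM tumours without VIM tumour 2. Of its 14 Hippo partners, 5 were higher and 2 lower (median log2 change 0.39), 2 were higher and 3 lower (median log2 change −0.053) and 1 were higher and 4 lower (median log2 change −0.29) in MYC, VM and VIM tumours, and with the length covariate the VM and VIM medians were 0.037 and 0.13. Lats2 was lower in all 3, with log2 changes of −1.03 (adjusted p = 0.0013), −1.59 (adjusted p = 4.57e-05) and −1.94 (adjusted p = 1.83e-05). The ERM gene Msn was higher in MYC and VM tumours, by 1.46 (adjusted p = 0.00113) and 0.85 (adjusted p = 0.00469), and changed by 0.60 (adjusted p = 0.0918) in VIM tumours.

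**Figure D4:**
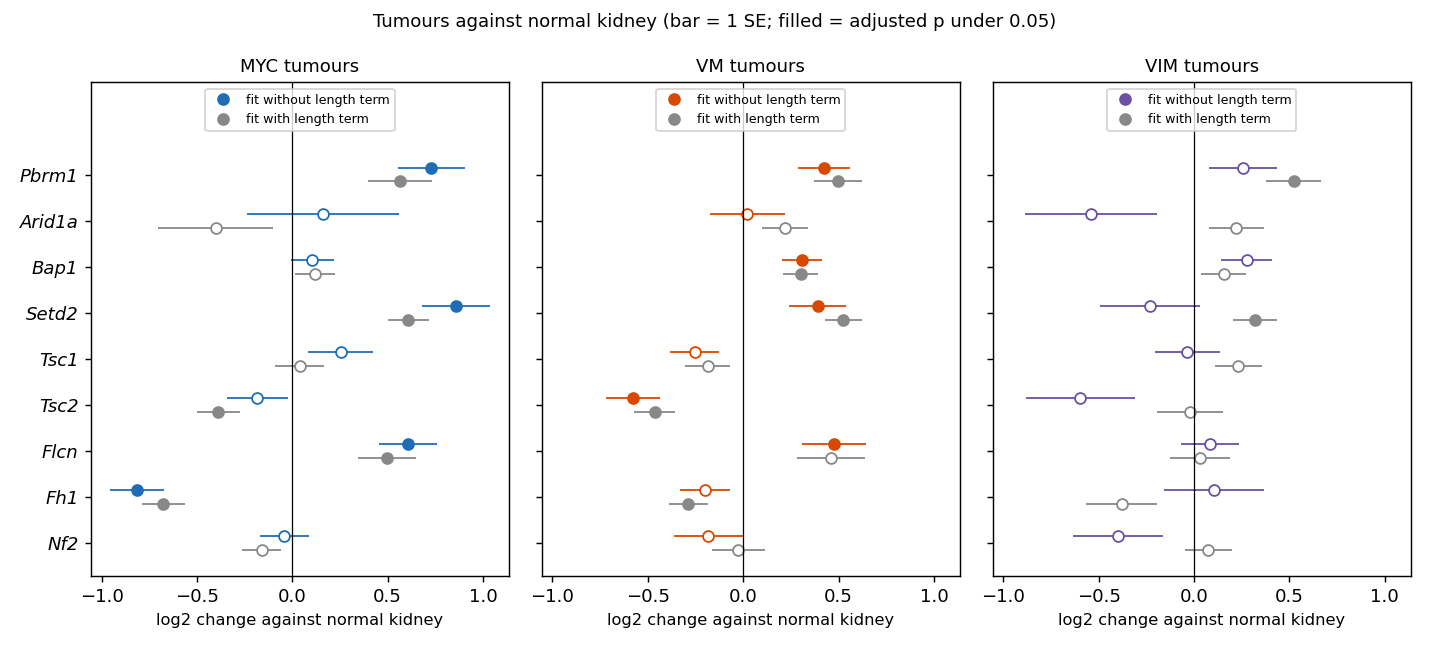
Log2 change against normal kidney (x axis, bar 1 SE) of each member in MYC, VM and VIM tumours, without (coloured) and with (grey) the transcript length covariate, filled where the adjusted p is under 0.05. Pbrm1 and Setd2 lie to the right of 0 in all 3 genotypes with the covariate, and Setd2 in VIM tumours moves from −0.23 to 0.32.

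No member passed the test between tumour genotypes, and few genes of any kind did. The genes called were 0 of 16085 (0%) between VM and MYC tumours, 1 of 16246 (0.00616%) between VIM and MYC tumours and 40 of 16096 (0.249%) between VIM and VM tumours, from limma, while 2110, 2361 and 1831 genes had an unadjusted p under 0.05. In a voom fit on the recovered reads 0, 0 and 15 were called. The widest differences among members were those of Setd2 (−1.09 ± 0.40, adjusted p = 0.312) and Fh1 (0.92 ± 0.42, adjusted p = 0.366) between VIM and MYC tumours. The length difference was 0.21 to 0.99 in MYC and −1.23 to 0.21 in VIM tumours, and its part in these values was not tested. Every MYC tumour lay above every VIM tumour in Setd2 and below every one in Fh1.

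Other genes followed the members' group means across the 10 groups. Among 13275 genes that reached 50 units in some group and ranged over 0.5 on the log2 scale, the likest to Fh1 was Uqcrc2, a core subunit of respiratory complex III (Pearson r = 0.994 on log2 group means), and the likest to Arid1a was Srebf2, a regulator of sterol synthesis (r = 0.984). Uba6, a ubiquitin-activating enzyme, followed Pbrm1 (r = 0.978), Stat3, a cytokine-activated transcription factor, followed Flcn (r = 0.918) and Rsf1, a remodelling factor, followed Setd2 (r = 0.965). The likest genes were Cep68 for Bap1 (r = 0.955), Hadha, a subunit of the mitochondrial trifunctional protein, for Tsc1 (r = 0.955) and Tspyl4 for Tsc2 (r = 0.964), and the weakest match was that of Nf2, to Gle1, an mRNA export factor (r = 0.889). These are descriptions over 10 group means that share the same libraries and include both culture and tissue.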

How the data were processed

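Poly(A) RNA was sequenced from stranded TruSeq libraries. Per the labels and the study's methods, the authors aligned reads to mm9 with MapSplice, profiled the alignments with Picard 1.64, sorted them with SAMtools, filtered them with UBU, used RSEM to estimate counts per UCSC known gene, and divided these so that every library has an upper quartile of 1000. The deposited table holds these values, which are signal per gene and not per length. Values of 1 read were recovered from the steps of low values (94.2% to 95.9% of the values checked were whole within 0.02 reads).

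For each comparison 2 groups (for interactions, 4) entered a limma model (version 3.58.1, R 4.3.3) of log2(value + 1), with a trended prior and Benjamini-Hochberg adjustment over all genes tested. Genes above 0 in at least 4 cell libraries, or 2 mice, of the comparison were tested. Libraries of 1 mouse were averaged. The fits were tested on simulated data. Alternatives were pseudocounts of 0.1 and 10, no filter, a mean filter of 10 units, TMM rescaling, quantile normalization, voom on the recovered reads, 1 fit of all groups, the replicate number as a block, and leaving out each library. The members were set by symbol, and members and gene lists were chosen with earlier results of these data known. Named pathway genes were, per list and comparison, at most 3 with the largest change among those called, with 50 units or more as the higher mean, and their values in other comparisons are given beside them. Each member's likest gene was the one with the highest Pearson r of group means. For transcript length 21084 of 21705 genes (97.1%) matched the GENCODE annotation of mm9, which also gave positions and overlaps. Python 3.11.15 with pandas 2.3.3 was used for tables.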

Additional observations from a re-analysis of the deposited data

Results flagged for a closer look

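In a group of 4 or 5 libraries, 4 member values lay far from the others by Dixon's criterion, of 63 groups tested, where chance alone gives about 1 in 20. Pbrm1 was highest in normal kidney 4 (1801.3 units). Setd2 was lowest in MYC-2983 cells without Dox replicate 1 (1771 units), and Nf2 was lowest in the same library (1729.8 units). Tsc2 was highest in VM cells with Dox replicate 1 (1123 units).

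The response to Dox differed between lines for 14 pairs of a member and a contrast, by limma's interaction term with adjustment over all genes tested, and each value below is on the log2 scale. In VM less MYC-2983 cells the difference was −0.32 for Pbrm1, −0.57 for Tsc1, −0.30 for Tsc2, −0.59 for Flcn, −0.29 for Nf2 and 0.20 for Fh1. In VIM less MYC-2983 cells it was −0.25 for Pbrm1, −0.12 for Tsc2 (adjusted p = 0.0197), −0.26 for Flcn, −0.33 for Nf2 and 0.21 for Fh1. In VIM less VM cells it was 0.50 for Tsc1, 0.18 for Tsc2 and 0.33 for Flcn. Each group has 4 libraries. Of the VIM less VM values, that of Tsc2 was 0.031 (adjusted p = 0.711) after TMM rescaling.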

How the results depend on the processing

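The members' directions with Dox were stable where they were large, and small changes followed the scale. TMM rescaling turned the sign of Tsc2 in MYC-2983 cells (0.038), of Pbrm1 in VM cells (0.012), of Pbrm1 (0.019), Setd2 (0.00029) and Tsc1 (0.024) in VIM cells with Dox, and of Arid1a between VM and MYC-2983 cells (0.030). Of values not called it turned Tsc1 (0.063) and Flcn (0.046) in MYC-2983 and Setd2 (0.11) in VM cells with Dox. It left 5 members called with Dox in VIM cells in place of 8, ended the Tsc2 differences in response of VIM cells against both other lines, and brought a lower Nf2 response (−0.18) in VIM than VM cells. Without Dox the sign turned for Tsc1 between VM and MYC-2983 cells (0.38), Fh1 between VIM and MYC-2983 cells (−0.20), and Tsc1 (−0.49) and Flcn (−0.15) between VIM and VM cells, and VM and MYC-2983 cells then differed in 4 members in place of 8. In 1 fit of all cell groups 4 members were called with Dox in MYC-2983 cells in place of 7. The share of called genes that were higher, 41.7%, 35.3% and 41.3% with Dox in MYC-2983, VM and VIM cells, was 52.7%, 49.7% and 50.4% after quantile normalization. For VM and VIM against MYC-2983 cells it became 53.8% and 53.2%. For the difference in response of VIM and MYC-2983 cells it went from 50.3% to 62.5% after TMM rescaling, and for VIM and VM cells from 68.4% to 35.6% after TMM rescaling and 55.1% after quantile normalization.

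Tissue calls were less stable. With the length covariate, added after seeing the data, Setd2 in VIM tumours turned to 0.32, and 2 members were called there in place of 0, as against 1 with no filter and 1 after quantile normalization. VM tumours had 5 members called, but 3 with no filter, 3 after TMM rescaling, 1 in 1 fit of all tissue groups (Flcn) and 1 against the kidneys titled KT only (Tsc2). Leaving out libraries gave 2 to 6 members in MYC tumours, 1 to 5 in VM tumours and 0 to 4 in VIM tumours. The 4 were found without VIM tumour 2, and were Setd2 (−0.57), Arid1a (−1.01), Tsc2 (−0.92) and Nf2 (−0.73), all lower. In VM tumours the count was 4 without tumour 1, 2 without tumour 2, 3 without tumour 3, 3 without kidney 1 or 4, 1 without kidney 2 and 2 without kidney 3, and the calls lost were among Pbrm1 (0.35 to 0.42), Bap1 (0.28 to 0.31), Setd2 (0.30 to 0.43) and Flcn (0.29 to 0.52), with Nf2 (−0.41) gained without tumour 2. Between VM and MYC tumours 0 genes were called, but 32 with no filter, 351 in 1 fit, 33 with the libraries of mouse 2983 kept separate, and 0 to 10 with a library left out. Between VIM and MYC tumours 1 gene was called, but 29 with no filter, 0 by voom, 762 in 1 fit, 7 with the libraries of mouse 2983 kept separate, and 0 to 16 with a library left out. Between VIM and VM tumours the 40 genes became 26 at a pseudocount of 10, 19 with no filter, 24 at a mean of at least 10 units, 15 by voom, 522 in 1 fit, and 2 to 45 with a library left out. No member was called between tumour genotypes when a library was left out.

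The VM and VIM titles carry shared replicate numbers. Deviations of libraries with the same number correlated by −0.31 to −0.046 in VM cells, −0.062 to 0.11 in VIM cells and −0.074 to 0.21 between VIM and VM cells with Dox. No pairing by number was thus seen, although so few libraries cannot exclude one. With the number as a block, 10303 genes were called with Dox in VM cells (10564 without the block), 10560 in VIM cells (10536), 9573 between VIM and VM cells (9488) and 4897 for the difference in response (5053), and the members called stayed at 7, 8, 6 and 3. Over all members and settings other than leaving out a library, 1128 values kept their direction and side of the threshold, 48 lost a call, 13 gained one, 11 turned with a call on one side or the other, and 24 turned without a call on either side, 9 of them after TMM rescaling, 6 after quantile normalization and 5 with the length covariate. The causes were not tested. With 2 to 5 animals a group and libraries of 8215700 to 15546000 estimated reads in tissue, changes of the size of the SE given are not resolved.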
